A study of Saccharomyces cerevisiae with 4 samples.

Results

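The genes described here encode the proteins of the cytoplasmic ribosome of Saccharomyces cerevisiae. They were chosen from the R64-1-1 annotation as nuclear coding genes with a symbol of RPL or RPS, a number and an optional A or B, together with the stalk genes RPP0, RPP1A, RPP1B, RPP2A and RPP2B. This rule uses names only and found 137 of 6002 genes, of which 76 encode large-subunit proteins, 56 small-subunit proteins and 5 the stalk that receives elongation factors. Of these, 118 form 59 pairs of A and B copies, 19 are single genes, and 89 carry an annotated intron.

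Capped RNA 5′ ends were sequenced in 4 libraries, 2 biological replicates of each of 2 strains. BY4741 is a MATa haploid laboratory strain with the alleles his3Δ1 leu2Δ0 ura3Δ0 met15Δ0, and set2Δ is the same background with SET2 replaced by kanMX4. Both were grown at 30 °C in YPD with 1% glucose, per the labels, and collected at an optical density of 1, so the auxotrophies and the growth conditions are shared by all 4 libraries. The set2Δ strain is a deletion throughout life, and the sources used here give no complemented strain. BY4741 replicates 1 and 2 held 452888 and 375442 counts and set2Δ replicates 1 and 2 held 1267578 and 1099482, so every set2Δ library was the deeper. SET2, the deleted gene, was counted 7 and 2 times in its internal window (from 200 bp after the start) in BY4741 but 0 and 1 times in set2Δ, as labelled. In its 5′ window, which reaches from 250 bp before the start through the first 200 bp, it had 24 and 11 counts against 13 and 11. LEU2 and MET17 (the current symbol of MET15), absent from both strains by genotype, had no 5′ counts, and URA3 had 1 in all. HIS3, which is only partly deleted, had 179 and 138 counts in its 5′ window in BY4741 and 265 and 247 in set2Δ. The a-cell list of 6 genes had 1323 and 1194 counts in BY4741 against 2240 and 1896 in set2Δ, while 4 alpha-cell genes had 6, 3, 30 and 29.

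Ribosomal protein genes are among the most strongly transcribed genes of growing yeast. The activators Rap1, Fhl1 and Ifh1 drive most of them, and nutrient signalling through TOR and protein kinase A sets their output. Although few yeast genes have introns, many ribosomal protein genes do, and their transcripts make up a large part of the work of the spliceosome. Set2 travels with RNA polymerase II and methylates a lysine of a core histone along gene bodies, a mark that keeps nucleosomes there deacetylated through the Rpd3S complex. Loss of Set2 is known for transcripts that begin inside genes, called cryptic transcripts. The comparison below asks where capped ends of ribosomal protein genes lay in each strain, upstream of the coding region, within its exons, within its introns, and on the other strand.

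Yeast polymerase II prefers to begin at a purine that follows a pyrimidine. The start sequences below are shown because they carry the main capped 5′ end of genes that the results turn on. Each runs 5′ to 3′ on the coding strand in build R64-1-1, and the capitals mark the base before the start and the start base itself. RPL3 is at chrXV:444649-444678 (+), RPL30 at chrVII:439018-439047 (+), RPP0 at chrXII:805812-805841 (+), RPS31 at chrXII:498875-498904 (+), RPS30A at chrXII:713183-713212 (−) and RPS6B at chrII:592797-592826 (−).
RPL3: catctctagaacaaCAcagttactacaaca
RPL30: ttttataatataacCAaacagaccggagtg
RPP0: agccataagatacaTAagcggaataccttt
RPS31: caatacaaagaagtCAcaagattacttggt
RPS30A: ttaaatttgccactGTaataatcttccata
RPS6B: tttggaagtcattaATtgaaactatccagt

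The start of RPL3, 22 bases before the coding region, had 126 and 86 counts in BY4741 replicates 1 and 2 against 101 and 85 in set2Δ replicates 1 and 2. The start of RPL30, 58 bases before it, had 65, 66, 69 and 70 in the same order. The start of RPP0 had 77, 54, 80 and 94, and that of RPS31 had 98, 92, 119 and 108. At these 4 positions the counts were about level between strains although the set2Δ libraries were deeper. RPS30A and RPS6B are genes with a short first exon whose main listed start is not at a pyrimidine-purine step, a group described further below.

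The following sequences hold the highest capped end within an intron of 5 genes. RPL43B is at chrX:608294-608323 (+), RPL42A at chrXIV:331313-331342 (+), RPS27A at chrXI:158603-158632 (+), RPL33A at chrXVI:282128-282157 (+) and RPL37B at chrIV:1450780-1450809 (−).
RPL43B: caaacaaaaaaatgTAtgcatataatagag
RPL42A: tcagtaaaaatgggTAtgttataaccataa
RPS27A: atatcccaaaatggTAtgttagtatccaat
RPL33A: gaatcccatagatgTAtgttaaaactgatg
RPL37B: aatcacatccggtcTGatttagaggattac

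In the first 4 of these the start base is base 3 of the intron, the A of the 5′ splice site, and in RPL37B it is base 53. RPL43B had 10 and 2 counts there in BY4741 against 17 and 16 in set2Δ. RPL42A had 3, 5, 15 and 15, RPS27A had 3, 2, 16 and 15, RPL33A had 1, 3, 12 and 12, and RPL37B had 1, 3, 13 and 14 in the same order of libraries. As counts all 5 were higher in both set2Δ libraries than in either BY4741 library, but the set2Δ libraries were also deeper, and relative to library size RPL43B was not higher in set2Δ than in BY4741 replicate 1, nor RPL42A in set2Δ replicate 1 than in BY4741 replicate 2.

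For 132 ribosomal protein genes with at least 100 counts, the most used start lay at a median of 30 bases before the coding region, with quartiles at 38 and 21 bases. In 4176 other genes the median was 44 bases, with quartiles at 77 and 26. The same position was the most used in all 4 libraries in 63.6% of the ribosomal protein genes and in 31.1% of the others. That position followed the pyrimidine-purine rule in 80.3% of ribosomal protein genes (106 of 132) against 98.7% of the others. Of the 26 exceptions 14 are minus-strand genes with a first coding exon of 20 bases or less, whose listed positions carry a limit from reads across exon junctions that is given with the short-exon genes. Starts were sought in the 5′ window only, and in 8 of the 132 genes the most used position lay inside the gene. These include RPL24B, RPL32, RPS25A and RPS26B, which had more BY4741 counts further upstream than in the window. RPS25A and RPS26B are also among the exceptions. The bases were CA in 45, TA in 24, CG in 20 and TG in 17 of the ribosomal protein genes. An A stood 8 bases before the start in 62.1% against 75.0%. These shares are descriptions, and starts in ribosomal protein genes rest on more counts.

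Counts from 250 bp before the annotated start through the first 200 bp of the gene, here called the 5′ window, were lower in set2Δ for most ribosomal protein genes. Together the 137 genes took 11.96% and 12.18% of all 5′ window counts in BY4741 and 8.481% and 8.678% in set2Δ. The means were 12.07% ± 0.156 and 8.579% ± 0.139 (SD, n = 2), a ratio of 0.711, and the Wilson 95% intervals, which cover counting error only, ran from 11.85% to 12.06% in BY4741 replicate 1 and from 8.423% to 8.538% in set2Δ replicate 1. The median gene had 916 CPM in BY4741 and 503 in set2Δ, where CPM are counts scaled to a library of 1000000, here after TMM scaling, which sets libraries level on most genes. In edgeR (quasi-likelihood test, Benjamini-Hochberg adjusted p below 0.1 over the 5249 genes tested), 104 of 137 were called lower and 11 higher. Among all genes tested, 30.2% were called lower and 32.8% higher. The median log2 fold change was −0.75 against 0.11 for all genes. Both set2Δ libraries lay below both BY4741 libraries in 114 of the 137 genes and above in 12, against 1893 and 2302 of 5249. How far these lower counts reflect less transcript was not tested, as the strain ratio also fell with level in all genes, which is described next. In bulk cultures, fewer cells with a transcript and less of it per cell cannot be told apart either.

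The strain ratio fell with the level of the gene, in ribosomal protein genes and in all others. Among other genes the median log2 fold change was 0.98 below 50 CPM in BY4741, 0.07 at 100 to 200, −0.68 at 400 to 800, −1.03 at 800 to 1600, and −1.32 in the 19 genes at 1600 or more. Among ribosomal protein genes it was −0.57 in 25 genes at 400 to 800, −0.83 in 44 genes at 800 to 1600 and −1.14 in 32 genes at 1600 or more. At these levels the medians of ribosomal protein genes were no lower than those of other genes. With cyclic loess offsets, which remove a relation of the ratio with the level, 37 were called lower and 42 higher, and their median log2 fold change was 0.03 against 0.05 for all genes.

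**Figure D1:**
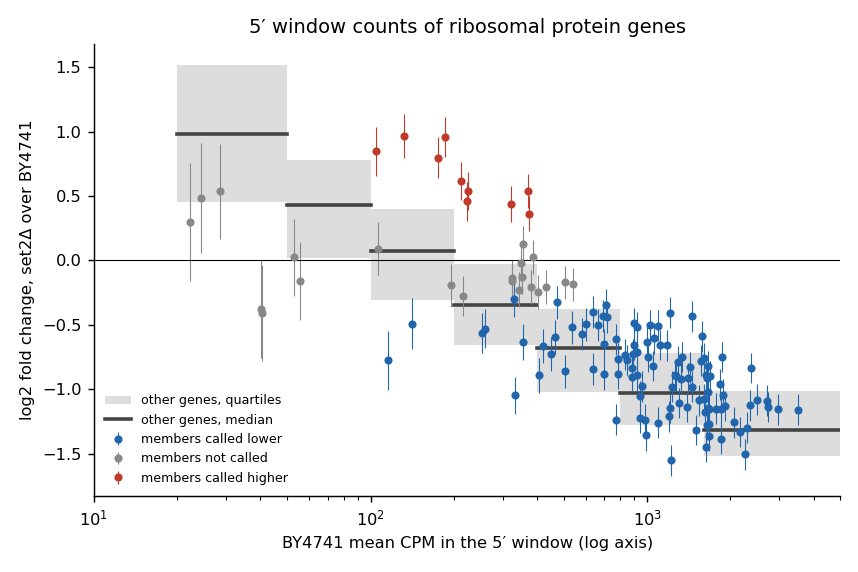
Log2 fold change of 5′ window counts, set2Δ over BY4741, against the BY4741 mean level in CPM (log axis) for 136 ribosomal protein genes with BY4741 counts, with bars of 1 standard error. Grey bands are the quartiles and black lines the medians of other genes by level class (the lowest class runs from 0 and is drawn from 20); the points called lower follow the fall of the black lines, and 10 genes called higher lie between 100 and 400 CPM, above the bands.

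The same was seen base by base. Bases were sorted by their counts in BY4741 replicate 1, and set2Δ was compared with BY4741 replicate 2, which took no part in the sorting, relative to library totals. Upstream of ribosomal protein genes the log2 ratio was 0.47 at bases without a count, −0.11 at 2 to 3 counts, −0.97 at 8 to 15 and −1.22 at 32 or more. Upstream of other genes it was 0.86, 0.31, −0.90 and −1.51 at the same heights. Sorting by replicate 2 instead gave 0.45, −0.31, −1.0 and −1.24 for the ribosomal protein genes. In ribosomal protein genes 161 and 145 positions of the 5′ window held exactly 16 counts in BY4741, and 420 and 316 in set2Δ. Exactly 14 counts stood at 110 and 100 against 190 and 169 positions. In other genes 1090, 856, 5193 and 3834 positions held 16 counts, and 886, 749, 2788 and 2432 held 14. The part of position height, and of this excess at 16 counts, in the lower 5′ counts was not tested beyond these values and the alternatives given.

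**Figure D2:**
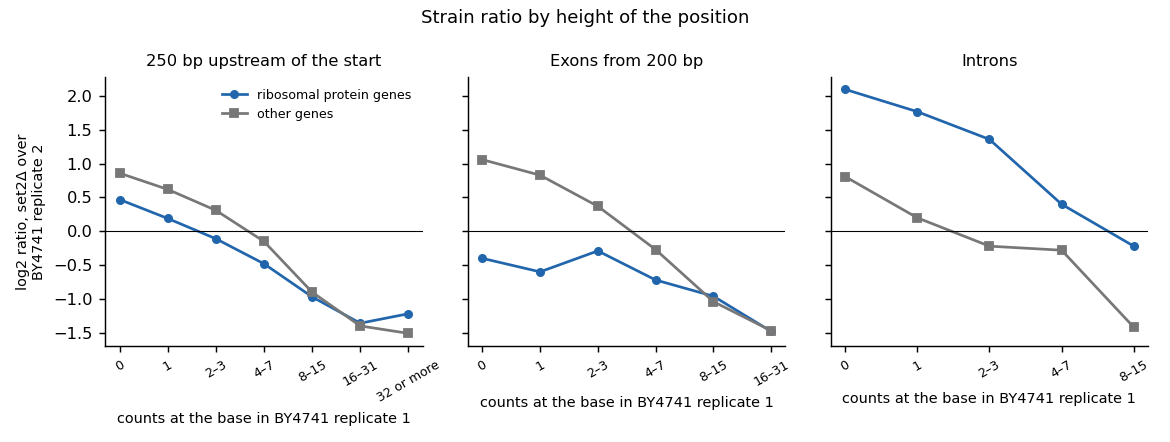
Log2 ratio of set2Δ to BY4741 replicate 2, relative to library totals, for bases grouped by their counts in BY4741 replicate 1, in 3 places. Upstream the ribosomal protein genes (blue) and other genes (grey) fall together from above 0 to between −1.22 and −1.51, in exons the ribosomal protein genes stay below 0 at every height while other genes start at 1.06, and in introns the ribosomal protein genes start at 2.1.

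The highest 5′ levels in BY4741 belonged to RPL41A and RPL41B, which encode the shortest ribosomal protein, to RPS31, which encodes ubiquitin fused to a small-subunit protein, and to RPL34B and RPS12. RPL41A had 3599 and 3411 CPM in BY4741 and 1474 and 1668 in set2Δ, without overlap (log2 fold change −1.16 ± 0.12 SE, edgeR adjusted p = 8.48e-20). RPS31 had 2797 and 3125 against 1346 and 1307 (−1.16, adjusted p = 3.96e-20). The other 3 had log2 fold changes of −1.14, −1.09 and −1.08. With loess offsets these 5 genes had values between 0.08 and 0.16.

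The largest falls among called genes were those of RPL4A and RPL4B, whose protein lines the exit tunnel, of RPL3, whose protein reaches toward the peptidyl transferase centre, and of RPL30. RPL4A had 373 and 363 counts in BY4741 against 441 and 365 in the deeper set2Δ libraries, that is 1112 and 1334 against 427.8 and 402.7 CPM (log2 fold change −1.55 ± 0.12, adjusted p = 2.83e-36). Only 64.7% of the bases in its window are the start of a sequence unique in the genome, as its copy RPL4B is nearly identical, and reads with several alignments had been left out. RPL3, a single gene, had 731 and 635 counts against 811 and 728 (−1.50, adjusted p = 4.72e-34). RPL30, whose protein binds its own transcript and holds back its splicing, had 545 and 565 against 709 and 655 (−1.39, adjusted p = 2.27e-29). RPP0, the base of the stalk, had 638 and 522 against 918 and 775 (−1.13), and all 5 stalk genes were called lower. The 19 single genes gave 16 lower and 0 higher, the large subunit 56 lower and 7 higher of 76, and the small subunit 43 lower and 4 higher of 56.

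Of the 2 genes for ubiquitin fused to a large-subunit protein, RPL40B was called lower (112, 102, 231 and 209 counts, log2 fold change −0.63, adjusted p = 1.84e-05). RPL40A had 127, 89, 317 and 312 counts and was not called (−0.13, adjusted p = 0.427). RPS14B, repressed through its own pre-mRNA when its protein is in excess, had 78 counts in each BY4741 library and 181 and 164 in set2Δ (−0.53, adjusted p = 0.00147).

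The 11 genes called higher in the 5′ window were RPL20A, RPL20B, RPL37A, RPL37B, RPL42A, RPL43A, RPL43B, RPS17B, RPS22B, RPS27A and RPS30B. All but RPS22B have a first coding exon of 20 bases or less, so that most of the window inside the gene is intron. RPL37B, whose protein binds zinc, had 214.7 and 158.1 CPM in BY4741 and 331.8 and 407.1 in set2Δ (log2 fold change 0.96 ± 0.15, adjusted p = 3.58e-09). RPL42A had 143.1 and 121.3 against 253.2 and 268.1 (0.96 ± 0.17, adjusted p = 1.11e-07). RPS30B had 38 and 26 counts against 183 and 184 (0.85, adjusted p = 3.86e-05), and RPL43B had 66 and 42 against 309 and 289 (0.80, adjusted p = 1.94e-06).

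The place of the counts differed with the first exon. The 53 genes with a first coding exon of 1 to 20 bases gave 10 higher and 30 lower (median log2 fold change −0.44). The 36 genes with a first exon of 21 to 309 bases gave 1 and 35 (−0.89). The 48 genes without an annotated intron between coding parts gave 0 and 39 (−0.95), and introns upstream of the coding region were not looked at. Of the 5′ window counts of the short-exon group, 5.39% and 4.63% lay within the intron in BY4741 and 19.6% and 18.8% in set2Δ. In the longer-exon group the intron held 0.696% and 0.518% against 3.75% and 3.64%. With introns left out, the short-exon group gave 5 higher and 42 lower, and all 137 genes gave 6 higher and 116 lower. RPL37B, RPL42A, RPL43A, RPL43B, RPS17B and RPS22B were the 6 genes that were higher there too.

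RPS22B had no count in its 5′ window in BY4741 and 10 and 6 in set2Δ, at least 1.87-fold higher against a floor of 3 counts over the BY4741 libraries. It thus passed the minimum count for a test through set2Δ alone. More capped ends lay further upstream, and a search from 251 to 1000 bases before each coding region found 9 of 137 genes with more BY4741 counts there than in the window. They were RPL24A, RPL24B, RPL32, RPS22B, RPS25A, RPS25B, RPS26B, RPS29A and RPS29B. RPS22B had 91, 96, 222 and 177 counts there, most of all 605 bases upstream, and RPS29A had 143, 145, 381 and 310, most of all 555 bases upstream. RPL24A had 141, 142, 334 and 310 against 16, 9, 32 and 28 in its window. In CPM of the library, set2Δ over BY4741 was between 0.585 (RPS25A) and 1.57 (RPL24B) in this stretch, which had no test. Bases inside other coding regions of the same strand were left out, and which gene the counts belong to was not tested. The 9 genes had 1 call in each direction in the 5′ window, and the other 128 had 10 higher and 103 lower. RPS25B (10, 4, 33 and 22 window counts, adjusted p = 0.587) and RPS29A (9, 6, 38 and 29, adjusted p = 0.331), the lowest in the window beside RPS22B, were not called.

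Introns of ribosomal protein genes held about 3 times as many capped 5′ ends in set2Δ relative to library size. Within the introns of the 89 genes lay 690 and 517 counts for BY4741 against 5889 and 5125 for set2Δ. In CPM of the library, that is without TMM scaling, these were 1524 and 1377 against 4646 and 4661, with means of 1450 ± 104 and 4654 ± 10.6 (SD, n = 2), a ratio of 3.21. Introns of 182 other genes went from 761.4 to 1030 CPM, a ratio of 1.35. In all 4 libraries these ends followed the pyrimidine-purine rule in 84.3%, 85.1%, 81.4% and 82.3% of counts, where 23.8% of the intron bases do. Of the counts, 56.1% in each BY4741 library and 51.5% and 52.6% in set2Δ lay in the first 10% of the intron. The rise was not confined to introns. In genes with a first coding exon of 20 bases or less, exon bases of the first 200 bp went from 81 and 48 counts to 433 and 433. The position 20 bases before the splice site of these genes held 7, 6, 69 and 60 counts on the plus strand. On the minus strand it held 7, 6, 51 and 48. Over all ribosomal protein genes, the first 200 bp without introns had a ratio of 1.06.

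By edgeR, with introns tested beside the 5′ windows, 71 of 87 tested introns of ribosomal protein genes were called higher in set2Δ and 0 lower. Of the 71, 6 had no BY4741 count. They passed the minimum of 10 counts through the deeper set2Δ libraries alone, so they could not have been called lower. Other introns among the 71 also reached this minimum only with their set2Δ counts. Examples are RPS23B (1 and 0 BY4741 counts), RPL27A (2 and 2) and RPL19A (4 and 4). The minimum thus favoured introns high in set2Δ, and the numbers of higher and lower calls carry this limit. Among the tested introns of other genes 2 had no BY4741 count. Over all 143 introns tested, 60.8% were called higher and 1.40% lower, and the other 56 gave 16 higher and 2 lower. The median log2 fold change was 1.60 for the ribosomal protein genes, 0.95 for the others and 1.40 over all. As most introns tested belong to ribosomal protein genes, the background is mostly their own. Both set2Δ libraries lay above both BY4741 libraries in 77 of the 87 and below in 0, against 26 and 5 of the 56 other introns. This comparison was added after the data were seen. The large subunit gave 44 higher of 51 and the small subunit 27 of 35. Short-exon genes gave 45 of 53 and longer-exon genes 26 of 34. Genes lower in the 5′ window had higher introns in 47 of 63 cases, and genes higher in it had them in 11 of 11. As the 5′ window includes intron bases, these groups are not independent of the intron counts. The ratio at single intron bases also fell with height, from 2.1 on the log2 scale at bases without a count in BY4741 replicate 1 to 0.4 at 4 to 7 counts, against 0.81 and −0.28 in other introns. With loess offsets 46 were higher and 2 lower.

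**Figure D3:**
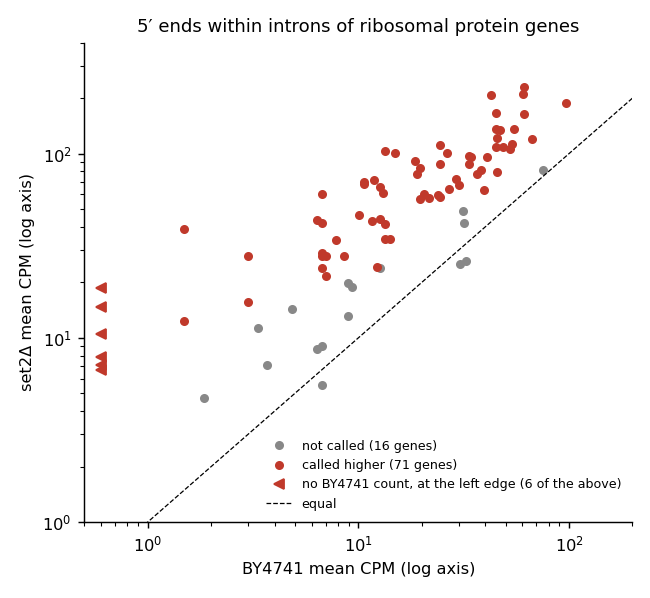
Mean CPM within introns of 87 ribosomal protein genes, set2Δ against BY4741 (log axes, n = 2 libraries each), with the dashed line at equal levels. The 71 genes called higher (red) lie above the line, and 6 of them without a BY4741 count are drawn at the left edge.

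The largest intron counts among these genes were in RPL20B, RPS27A and RPL37B, named for their level after the values were seen. RPL20B had 15 and 11 counts in BY4741 against 223 and 183 in set2Δ, that is 44.9 and 40.6 against 215 and 201 CPM (log2 fold change 2.27, adjusted p = 4.84e-20). RPS27A had 25 and 13 against 258 and 192 (1.87, adjusted p = 2.33e-17), and RPL37B 22 and 15 against 216 and 196 (1.79, adjusted p = 2.84e-15). Steeper rises were seen in RPL19A (4, 4, 100 and 100 counts, 2.94) and RPL33A (1, 5, 73 and 63, 2.79). RPS23B, for a protein of the decoding centre, had 1, 0, 39 and 37 counts (adjusted p = 4.57e-07), a ratio of 26.6 relative to library totals with an exact 95% counting interval from 4.63 to 1060. RPL39 had 0 and 0 against 18 and 18, at least 4.2-fold higher against the floor of 3 counts over BY4741. The other 5 without BY4741 counts, RPL17A, RPL17B, RPL14A, RPS7A and RPS7B, had bounds from 1.52 to 3.27-fold, and with all 6 at their bound the median log2 fold change of the 87 was 1.48.

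Introns that were not called included those of RPS14B (8, 11, 26 and 25 counts, log2 fold change −0.26, adjusted p = 0.61), RPL22B, where the protein also regulates its own transcript (9, 10, 50 and 33, 0.44, adjusted p = 0.318), and RPL26A (28, 18, 85 and 74, 0.10, adjusted p = 0.74). RPL26A carried its highest intron position at base 447, the last of its intron, with 13, 10, 16 and 16 counts. The paralogs RPL7A and RPL7B differed in value, with 8, 10, 27 and 22 intron counts in RPL7A (−0.24, adjusted p = 0.647) and 3, 1, 41 and 43 in RPL7B (2.67, adjusted p = 1.61e-05). The difference between these 2 was not tested. Each hosts a small nucleolar RNA in an intron, SNR39 in RPL7A and SNR59 in RPL7B.

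Base 3 of the intron, the A of the 5′ splice site in 97.8% of the 91 introns, held 96 and 82 counts in BY4741 against 502 and 451 in set2Δ. That was 13.9% and 15.9% of intron counts in BY4741 and 8.52% and 8.8% in set2Δ, from 73 of the 91 introns. In the introns of other genes the same base held 4.18%, 4.08%, 6.71% and 6.95% of intron counts. The T before it and the A itself make a pyrimidine-purine step, as in the sequences of RPL43B, RPL42A, RPS27A and RPL33A above. Base 5 held 30, 14, 186 and 167 counts and base 1, the G that opens the intron, 7, 7, 89 and 86.

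Capped ends in exons from 200 bp after the start differed from those in introns. Summed over ribosomal protein genes they went from 9068 ± 989 CPM in BY4741 to 6023 ± 734 in set2Δ (SD, n = 2, ratio 0.664), while those of other genes went from 90220 ± 6230 to 165300 ± 8630 (ratio 1.83). In ribosomal protein genes the share of these ends at a pyrimidine-purine step was near the 21.4% of bases that have it, with 21.5% and 20.4% of counts in BY4741 and 22.9% in both set2Δ libraries. The Wilson 95% intervals held 21.4% in both BY4741 libraries and lay just above it in set2Δ, from 22.1% to 23.9% in replicate 1 and from 21.9% to 24.0% in replicate 2. In other genes the share was 35.0% in BY4741 and 58.1% in set2Δ. Upstream of the start, ribosomal protein genes went from 94200 to 52680 CPM (ratio 0.559) and other genes from 683600 to 599400 (ratio 0.877). In the first 200 bp without introns the ratios were 1.06 and 1.24.

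**Figure D4:**
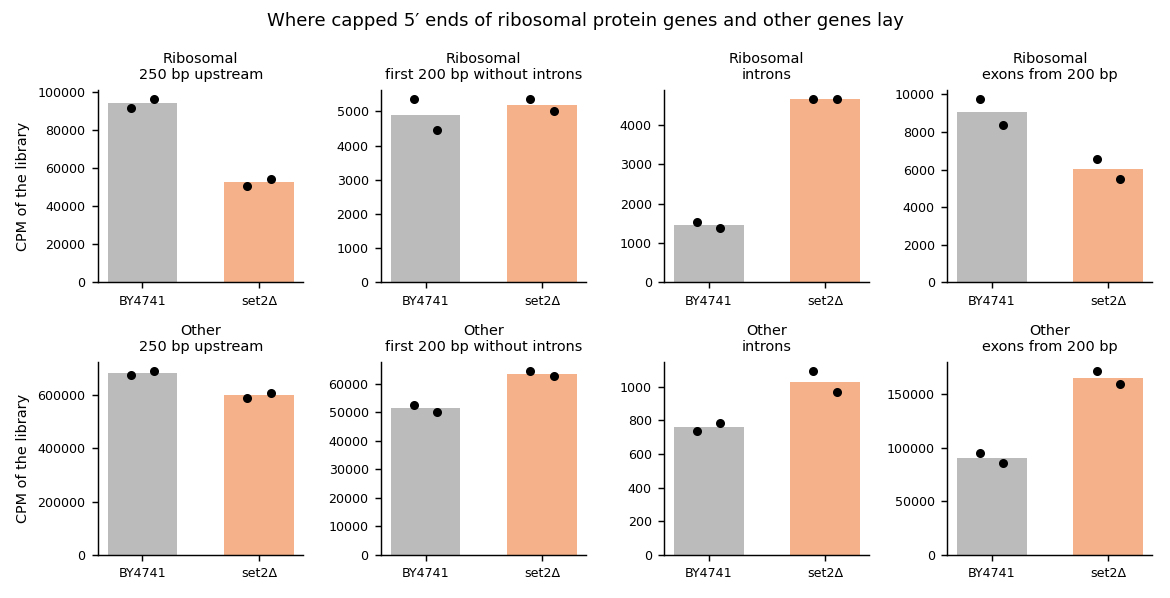
CPM of the library in 4 places, for the ribosomal protein genes (top) and all other genes (bottom). Bars are the mean of 2 libraries, points the single libraries, and each axis starts at 0 with its own scale; introns of ribosomal protein genes go from 1450 to 4654 and their later exons from 9068 to 6023, while the bar of later exons of other genes is taller in set2Δ.

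In the internal window, from 200 bp after the start to the gene end with introns included, 128 of the 137 genes were tested. RPL29, RPL38, RPL41A, RPL41B, RPS28A, RPS28B, RPS29A and RPS29B are under 300 bp and RPL1A had too few counts. By edgeR 85 of 128 were called lower and 3 higher, where 17.6% of the 4726 genes tested were lower and 25.0% higher. The median log2 fold change was −1.02 against 0.15 for all genes. Both set2Δ libraries lay below both BY4741 libraries in 100 genes and above in 6, against 1366 and 1858 of the 4726 tested. Ribosomal protein genes took 9.237% ± 0.325 of all internal counts in BY4741 and 3.808% ± 0.243 in set2Δ (ratio 0.412). Unlike upstream, the ratio was below 0 also at exon bases without a count in BY4741 replicate 1, where it was −0.40 on the log2 scale for ribosomal protein genes and 1.06 for others. Loess offsets gave 92 lower and 2 higher.

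Without set2Δ replicate 2, no ribosomal protein gene was called by the same test (smallest adjusted p over all genes 0.1031, with 1335 genes at an unadjusted p below 0.05), while the median log2 fold change was −1.06. With robust dispersion, chosen after the data were seen, 75 were lower and 1 higher without that library. Scaling to library totals instead of TMM moved the median of all genes from 0.15 to 0.83 and left 42 ribosomal protein genes lower and 9 higher.

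RPL3 had the highest internal levels among the genes named, with 270 and 188 counts in BY4741 against 310 and 228 in set2Δ, that is 5455 and 5209 against 1404 and 1335 CPM (log2 fold change −1.96, adjusted p = 3.87e-22). RPL8B had 107 and 66 counts against 107 and 81 (−2.07, adjusted p = 2.4e-20), and RPS15, for a protein of the small-subunit head, 82 and 57 against 91 and 67 (−2.01, adjusted p = 9.91e-18). RPL30 had 23, 33, 27 and 18 counts (−2.51, adjusted p = 2.19e-13). RPL4A had 43, 32, 32 and 13 (−2.93, adjusted p = 1.47e-20), with only 28.2% of its bases unique. RPP0, RPS31, RPL40A, RPL40B and RPS14B were called lower too, with log2 fold changes from −1.70 for RPP0 to −0.73 for RPL40B. RPL40A was thus called in the internal window but not in the 5′ window.

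The 3 genes called higher internally were RPL7B, RPL42A and RPS9A. RPL7B had 5 and 2 counts in BY4741 against 48 and 50 in set2Δ (log2 fold change 1.61 ± 0.50, adjusted p = 0.00565). RPL42A had 3, 0, 27 and 18 (adjusted p = 0.0707), a ratio of 5.25 relative to library totals with an exact 95% counting interval from 1.69 to 26.4. RPL7B and RPL42A reached the minimum count for a test only with their set2Δ counts. With introns left out neither was called, at log2 fold changes of 0.52 and 0.67. RPS9A, for a protein near the decoding site, had 12, 15, 102 and 98 counts (0.70, adjusted p = 0.0638) and was the only 1 of the 3 called with introns left out (0.78). Its own intron had 1, 4, 16 and 10 counts and was not called (adjusted p = 0.441).

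Internal and 5′ changes of each gene were compared in a single model with library as a factor. The internal change was the lower for 24 and the higher for 4 of 128 ribosomal protein genes, where 6.40% of 4500 genes were lower and 8.09% higher, and the median difference was −0.27 against −0.03. Scaling to library totals gave 6 lower and 9 higher, and leaving out BY4741 replicate 1 gave 9 lower and leaving out set2Δ replicate 2 gave 15. The largest positive differences were those of RPL7B (2.71, adjusted p = 4e-06) and RPS9A (1.65, adjusted p = 3.15e-05), and RPL43B had a difference of −1.75 (adjusted p = 0.0132). Internal counts made up 9.84% and 8.21% of 5′ and internal counts together in BY4741 and 11.2% and 9.19% in set2Δ, so the strains overlapped. For other genes the shares were 12.3% and 11.1% against 21.7% and 20%. Antisense capped ends were few, with 16, 18, 53 and 53 counts over all ribosomal protein genes, and 0 of the 2 genes with enough counts were called by edgeR or DESeq2 (0 at an unadjusted p below 0.05 in edgeR).

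Paralogs mostly kept their balance. In 46 of 59 pairs the same copy had more 5′ window counts in all 4 libraries, the A copy in 24 and the B copy in 22. Both copies were lower in 38 pairs, both higher in 3, and the calls were opposite in 4. The median absolute difference between the log2 fold changes of the copies was 0.28. The 4 pairs with opposite calls were also those with a difference above 1, and none of these differences was tested. RPL42A had 0.219 and 0.195 times the counts of RPL42B in BY4741 and 0.546 and 0.529 times in set2Δ. RPS30A had 6.11 and 7.62 times those of RPS30B in BY4741 and 3.0 and 2.89 times in set2Δ. RPS27A had 0.359 and 0.355 times those of RPS27B and then 0.819 and 0.704 times. In each of the 3 pairs the copies were closer to equal in set2Δ, and it was the less used copy that was called higher. These windows include intron bases, and with introns left out RPL42A was still called higher but RPS27A and RPS30B were not. The ratio also fell with level in all genes, and the part of level in these pairs was not tested. RPS22A was lower and RPS22B, whose window held few counts, higher. RPS30A turned positive with loess offsets (0.40), as did RPL42B (0.28).

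**Figure D5:**
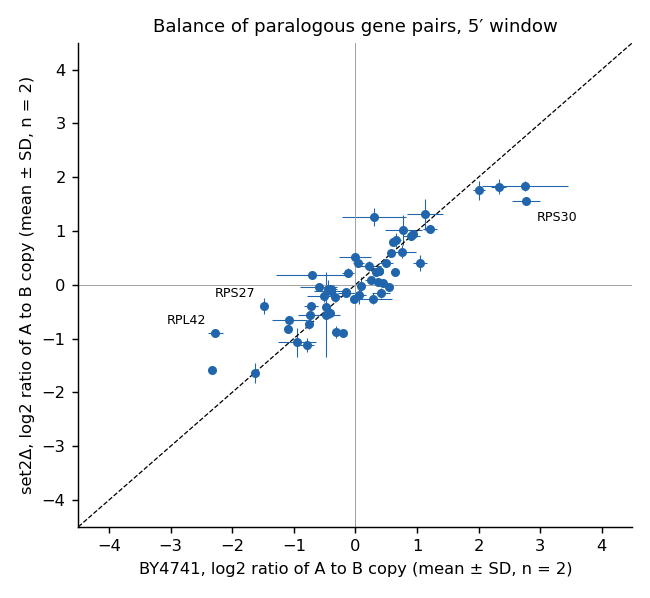
Log2 ratio of A-copy to B-copy counts in the 5′ window, set2Δ against BY4741, for 58 paralog pairs (mean ± SD of 2 libraries), with the dashed line at equal ratios. Most pairs lie near the line, and the labelled pairs RPL42, RPS27 and RPS30 lie nearer to 0 in set2Δ than in BY4741.

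Start positions of genes with a short first exon carry a limit. A read leaves 42 bases after its barcode, so a read from a start close to the splice site crosses the exon junction. For the 53 short-exon genes, counts of the 4 libraries were added over the 120 bases before the splice site. Each base was given its share of the gene's sum, and the shares were averaged over genes. Bases 39 to 58 before the splice site held 49.4% on the plus strand and 52.4% on the minus strand, against 17.2% and 12.3% at 19 to 38 bases. The main start followed the pyrimidine-purine rule in 27 of 28 plus-strand genes and 11 of 25 minus-strand genes. By the same mean of shares, the position 43 bases before the splice site held 2.55% and 9.95%. RPS30A and RPS6B, whose starts are printed above, are minus-strand genes of this kind. The authors had also left out reads with more than 10% of their length unaligned (soft-clipped). The part of reads across junctions, kept or left out, in the levels, intron shares and calls of these genes was not tested.

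The 250 bases before each coding region were searched on both strands for known promoter elements. The Rap1 core ACCCNNACA was found in 8.76% of ribosomal protein genes (12) and 2.5% of all genes, TATAAA in 23.4% and 43.4%, a run of 7 T in 40.9% and 47.9%, the Reb1 site TTACCCG in 4.38% and 7.03%, and the Tbf1 site AACCCTA in 2.19% and 2.13%. Over 500 bases, a window added after the data were seen, the Rap1 core was in 39.4% (54 genes) against 5.47%. Of the 12 genes with the core in 250 bases, 10 were lower and 0 higher in the 5′ window, against 94 and 11 of 125 without it. A match is a description of the sequence only.

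Lists of genes that work with the ribosome were read in the same test of the 5′ window. Of 25 translation factors and ribosome partners 22 were lower and 0 higher, with a median BY4741 level of 873 CPM and a median log2 fold change of −0.99. Of 31 ribosome assembly genes 11 were lower and 9 higher (422 CPM, −0.09). Of 22 regulators of ribosomal protein genes 19 were tested, with 4 lower and 8 higher (50.4 CPM, 0.64). The 15 stress genes gave 9 lower and 0 higher (106 CPM, −0.76). The part of level in these calls was not tested. In the internal window the translation factors gave 14 lower and 0 higher of 22, the assembly genes 3 and 3 of 30, and the regulators 3 lower and 11 higher of 22.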

How the data were processed

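Capped RNA was converted to libraries with an 8 nt random barcode from 10 µg of total RNA and sequenced as 50 nt paired reads. According to the methods and the submitters' processing notes, the authors used CASAVA 1.8.2 and aligned reads to R64-1-1 with Novoalign at default settings. They left out reads with several alignments, a soft-clipped 5′ end, or soft clipping over more than 10% of the read length. The deposited values are raw counts, in whole numbers, of 5′ ends per base and strand. Whether reads of the same barcode were merged is not given in the sources used here. The counts themselves were used as deposited, with minus-strand positions moved 42 bp to the right, since a pyrimidine-purine step then stood at 77.0% to 78.8% of used positions against 23.4% to 23.8% as listed (80.8% to 85.0% on the plus strand).

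Genes came from the R64-1-1 annotation, with introns as gaps between coding parts, so introns outside the coding region were not used. Counts were summed over the 5′ window, the internal and antisense windows (genes of at least 300 bp) and introns, leaving out positions shared by genes of a strand, with a minimum of 10 counts summed over libraries for a test. The strain effect was fitted in R 4.3.3 with edgeR 4.0.16 (TMM scaling, quasi-likelihood test, adjusted p below 0.1 after Benjamini-Hochberg), and standard errors are the log2 fold change over the square root of F. The libraries are biological duplicates, so p-values rest on 2 against 2, where an exact permutation of a single value cannot go below p = 0.33. In the 5′, internal and antisense fits the prior degrees of freedom were infinite. Each gene thus took a dispersion shared with other genes, and its p-value does not measure its own spread between replicates. Without set2Δ replicate 2 the prior degrees of freedom of the internal fit were 2.096. Replicate numbers did not pair the libraries (correlation of deviations −0.0759 in the 5′ window and −0.074 internally).

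On simulated data for the 5′ window (5225 genes), 70.7% of 2-fold and 95.9% of 4-fold changes were found and 10.4% of calls were false. Internally (4619 genes) these were 20%, 68.5% and 7.06%. The simulation changed 200 genes, as many up as down, with a fixed dispersion and no fall of the ratio with level. Far more genes were called in the data, so these rates do not give the false share of the calls above. Alternatives were DESeq2 1.42.0, other scalings including loess offsets with limma 3.58.1, filters, windows, distinct positions, positions under 8 counts, thinned libraries, a replicate block and leaving out each library. The members and lists were chosen with earlier results of these data known. Genes were named by level, by the size of called changes and for their roles, except where the text says otherwise. Tables were handled with Python 3.11.15, numpy 2.4.6, pandas 2.3.3 and scipy 1.17.1, and figures with matplotlib 3.10.9.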

Additional observations from a re-analysis of the deposited data

How the results depend on the processing

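Of 137 ribosomal protein genes, 104 were lower and 11 higher in the 5′ window. Settings that moved these counts by over 1.5 times were loess offsets (37 lower, 42 higher), distinct positions (64 and 5), positions under 8 counts (68 lower), DESeq2 (6 higher) and introns left out (6 higher, chosen after the data were seen). Leaving out a library gave 102 to 104 lower and 9 to 11 higher. The share of 5′ window counts, a set2Δ minus BY4741 difference of −3.49 points, was −1.26 with distinct positions, −1.25 with positions under 8 counts, −3.75 in the narrower window and −3.60 to −3.38 with a library left out. Of the 85 lower and 3 higher internally, library totals left 42 and 9. The higher count was 0 with DESeq2 and 1 at an adjusted p of 0.05, with the highest position left out, with thinned libraries, with 300 bp left out, with introns left out and with robust dispersion without set2Δ replicate 2. Leaving out a library gave 0 to 83 lower and 0 to 2 higher, with 0 of each without set2Δ replicate 2. For antisense counts, library totals gave 1 higher. For the internal change against the 5′ change, main counts of 24 lower and 4 higher became 6 and 9 with library totals and 42 and 1 with distinct positions, and 1 was higher with positions under 8 counts, while leaving out a library gave 9 to 26 lower (9 without BY4741 replicate 1, 15 without set2Δ replicate 2) and 2 to 4 higher. For introns, 71 higher became 46 with 2 lower under loess offsets, 52 with DESeq2, 55 with distinct positions, 76 with library totals and 62 to 64 with a library left out. A replicate block gave 104 lower and 11 higher in the 5′ window, 80 and 2 internally, 0 antisense, 18 and 4 for the difference, and 69 higher introns. Among named genes the sign turned with loess offsets in RPL41A (0.16), RPS31 (0.10), RPL34B (0.08), RPS12 (0.13), RPL41B (0.10), RPL42B (0.28), RPS30A (0.40) and RPL40A (0.32), and in RPS30A with distinct positions (0.15) and positions under 8 counts (0.80). Of the other values of named genes 730 kept their direction and side of the threshold, 73 no longer passed it and 3 newly passed it. Except for the smaller gene and library sets, the cause was not tested. Depth left only 2 ribosomal protein genes with enough antisense counts for a test.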
